A study of Mus musculus with 12 samples.

Results

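The major urinary protein (Mup) genes were examined in mouse liver, in input RNA and in lists of m6A peaks. The 9 genes (Mup1, Mup3, Mup7, Mup11, Mup12, Mup16, Mup18, Mup20 and Mup21) were selected on earlier results of these same input values and taken by gene name from a table of 22564 genes. The table holds 21 rows whose name is Mup and a number. Since the levels chose the genes, the levels and their differences below are a description, without a test. The livers came from male C57BL/6 mice, 8 weeks old, that carried a liver-specific Mettl3 knockout (Mettl3 cKO) or were wild type, and each genotype has 3 IP and 3 input libraries in the labels. Mettl3 encodes the methyltransferase that places N6-methyladenosine (m6A) in mRNA. The Cre driver and the deleted part of the gene are not stated in the labels. Levels and peaks could be tied to a genotype for 1 input library and 1 IP peak list each. They are headed case and control, which were read as Mettl3 cKO and wild type, a reading the labels do not state.

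MUPs are small secreted lipocalins, barrel-shaped carriers of hydrophobic ligands. Hepatocytes release them into the blood, and the kidney passes them into the urine, where they bind volatile pheromones and serve as scent signals. Their genes form a tandem cluster of close copies, many of them nearly identical. In male mouse liver their transcription depends on pulses of growth hormone, which act through the receptor GHR, the kinase JAK2 and the transcription factor STAT5B.

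Depth was 3564804 fragments, with 12908 genes above 0, in the input labelled case, against 1737348 fragments, with 14132 genes above 0, in the input labelled control. With 1 library per genotype there is no replicate check, and each difference compares these libraries rather than the genotypes. Intervals are 95% exact intervals of fragment counts or their ratio and cover counting error only, since copies made by PCR are not independent molecules. The targeted gene Mettl3 (chromosome 14, 52258811 to 52305128) had 2.91 FPKM from 17 fragments in the case input, against 3.44 FPKM from 12 fragments in the control input. By FPKM it was lower and by scaled fragments higher in the case input, with a scaled fragment ratio of 1.21 (interval 0.545 to 2.78), which leaves the library labelled case undistinguished by this gene. FPKM (fragments scaled by transcript length and library depth) left unequal totals. Outside mitochondrial genes it summed to 210314 in the case input and 117090 in the control input.

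Mup RNA was far more abundant in the case input. The 9 genes summed to 3550 FPKM in the case input, from 17450 fragments, against 346 FPKM in the control input, from 1473 fragments. With fragments put on the authors' library scale, the case-to-control ratio was 10.1 (interval 9.59 to 10.7). The size depended on scaling: the log2 difference of the sum was 3.36 as deposited, 2.62 with equal non-mitochondrial totals and 2.20 with quantile normalization. It also counts 4 genes listed at 0 in the control input as 0. The 5 genes above 0 in both libraries summed to 2834 FPKM in the case input and 346 FPKM in the control input, a scaled fragment ratio of 8.01 (interval 7.59 to 8.45). The sum made up 1.69% of all non-mitochondrial FPKM in the case input and 0.295% in the control input. Alb, the albumin gene and a hepatocyte transcript of high abundance, had 21158 FPKM in the case input and 11189 FPKM in the control input, a ratio of 1.89 (interval 1.88 to 1.91). In bulk RNA, a different number of hepatocytes and a different amount of RNA per hepatocyte cannot be told apart.

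Of the 9 genes, 8 were higher by 2-fold or more in the case input on the log2(FPKM + 1) scale, beside 23.6% of the 9584 genes kept. Genes were kept at a mean of at least 1 FPKM over the 2 libraries, with mitochondrial genes set aside, and all 9 passed. Of these, 6 had under 1 FPKM in the control input and passed through the case input alone. These 6 had to be higher in the case input, though not all by 2-fold, so the count of 8 supports nothing by itself. None of the 9 was 2-fold lower, beside 13.2% of genes kept, and Mup20 lay within 2-fold. The median log2 difference of the 9 was 4.28, and that of the 5 genes above 0 in both libraries was 3.22, beside 0.41 over all genes kept. Among genes ordered by this difference, 7 of the 9 stood in the first 25. Other scalings moved the median of all genes and kept the count of Mup genes. With equal non-mitochondrial totals 8 of 9 were higher beside 7.19% of genes kept, with quantile normalization 8 beside 14.2%, and with median centring 8 beside 11.6%. The median of all genes was -0.14 with equal totals and 0.16 with quantile normalization, where the median of the 9 was 3.54 and 3.62.

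**Figure D1:**
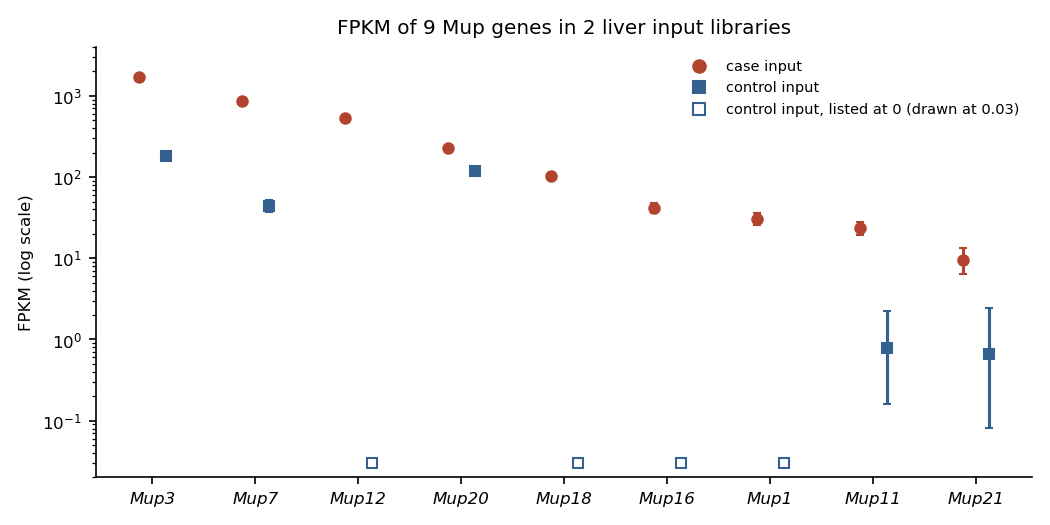
FPKM (log axis) of each of the 9 genes in the case input (circles, left) and the control input (squares, right), 1 library each, with 95% exact intervals of counting error. Filled squares lie below the circles for Mup3, Mup7, Mup20, Mup11 and Mup21, although for Mup20 the order turns under quantile normalization. Open squares mark the 4 genes listed at 0 in the control input.

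Mup3 was the most abundant of the 9 in both libraries. Mup3 (chromosome 4, 62083476 to 62087342, minus strand) had 1697 FPKM from 8720 fragments in the case input, against 181 FPKM from 793 fragments in the control input. The ratio of scaled fragments was 9.39 (interval 8.73 to 10.1). Mup7 (60066469 to 60070475, minus strand) showed a wider gap. It had 874 FPKM from 3746 fragments in the case input, against 44.1 FPKM from 151 fragments in the control input, a ratio of 21.2 (interval 18.004 to 25.1). These 2 genes alone supplied 47.8% and 24.6% of the summed FPKM in the case input, and 52.3% and 12.8% in the control input.

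Mup20 was the exception. It encodes darcin, the male pheromone protein that draws females to a male's urine mark. Mup20 (62050234 to 62054158, minus strand) had 231 FPKM from 1190 fragments in the case input, against 119 FPKM from 524 fragments in the control input. Its ratio of 1.94 (interval 1.75 to 2.15) overlaps that of Alb. Its log2 difference of 0.95 stood at position 2467 of the 9584 genes. Its direction depended on scaling: the difference was 0.21 with equal totals, 0.54 with median centring and -0.20 with quantile normalization.

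The next 4 genes were listed at 0 in the control input. Mup12 (60737383 to 60741326) had 540 FPKM from 2775 fragments in the case input but was listed at 0 in the control input. Mup18 (61670177 to 61674136) had 103 FPKM from 531 fragments in the case input but was listed at 0 in the control input. Both lie on the minus strand in the middle of the cluster, among close copies. Mup16 (61515592 to 61519531) had 41.7 FPKM from 180 fragments in the case input, with a listed 0 in the control input. Mup1, which has also been studied for its part in glucose and lipid metabolism, had 30.7 FPKM from 157 fragments in the case input, with a listed 0 in the control input. A listed 0 can be a failed estimate rather than absence, which was not tested. In the control input 8 mitochondrial genes were also at 0, against 0 such genes in the case input. No fold is therefore given for these 4 genes. Of all genes kept, 5 had at least 30 FPKM, a level picked after the values were seen, in the case input with a listed 0 in the control input. These 4 were among them, and the other, singled out after its value was seen, was Zc3h7a at 33.1 FPKM in the case input.

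Mup11 and Mup21 rested on few fragments in the control input. Mup11 had 23.4 FPKM from 118 fragments in the case input, against 0.774 FPKM from 3 fragments in the control input, a ratio of 33.6 with a wide interval of 11.2 to 165. Mup21 (62147932 to 62150863, minus strand), at the end of the cluster, had 9.40 FPKM from 33 fragments in the case input, against 0.669 FPKM from 2 fragments in the control input. Its ratio was 14.1 (interval 3.60 to 121). The loci of Mup1 and Mup11 are deposited as a shared bundle of neighbouring genes, 60218621 to 60662411.

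The order of levels differed between the libraries. In the case input it ran Mup3, Mup7, Mup12, Mup20, Mup18, Mup16, Mup1, Mup11, Mup21, and of these neighbours only Mup1 and Mup11 had overlapping counting intervals. In the control input it ran Mup3, Mup20, Mup7, Mup11, Mup21, with overlapping intervals for Mup11 and Mup21. Mup3 and Mup20 together held 54.3% of the summed FPKM of the 9 genes in the case input and 86.8% in the control input. Over the 5 genes above 0 in both libraries, which leaves the listed zeros out, their share was 68.0% in the case input and 86.8% in the control input. The 3 genes at the high-coordinate end of the cluster, Mup20, Mup3 and Mup21, summed to 1937 FPKM in the case input and 301 FPKM in the control input, with a fragment ratio of 6.44 (interval 6.08 to 6.82). Of the other 6, Mup7 and Mup11 were above 0 in both libraries and summed to 897 FPKM in the case input and 44.9 FPKM in the control input, with a fragment ratio of 21.4 (interval 18.2 to 25.3). That split was made after the values were seen.

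**Figure D2:**
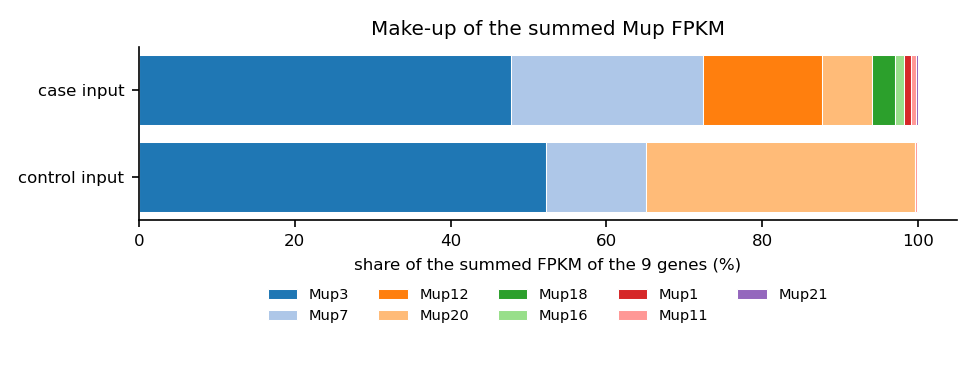
Share (%) of the summed FPKM of the 9 genes that each gene holds, in the case input (upper bar) and the control input (lower bar), with genes in the order of the key. Mup20 takes 6.51% of the bar in the case input and 34.5% in the control input, while Mup12 takes 15.2% in the case input and is absent from the control bar, where it was listed at 0.

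The table holds 12 further Mup rows outside the 9 genes. Near-identical copies can share fragments, so the split among rows depends on the authors' tool and each single row is uncertain. Mup2 (60135932 to 60154289) had 357 FPKM from 1838 fragments in the case input, against 0.228 FPKM from 1 fragment in the control input. It stood second among all genes by difference, next to Mup12 in first place. Its fragment ratio was 1570, with an interval of 281 to 62040 that the lone control fragment leaves wide. Of the 12 rows 9 were kept, 7 of them with under 1 FPKM in the control input. These 7 passed through the case input alone and had to be higher there, though not by 2-fold, so no count is drawn from them. Mup14 had 17.9 FPKM in the case input and 3.16 FPKM in the control input, and Mup19 had 13.6 FPKM in the case input and 2.74 FPKM in the control input. Mup9, Mup13 and Mup17 had 9.25, 5.65 and 1.94 FPKM in the case input, against 0.908, 0.686 and 0.456 FPKM in the control input. Mup6, Mup15 and Mup10 had 10.5, 3.90 and 3.54 FPKM in the case input but were listed at 0 in the control input. Mup4, Mup5 and Mup8 were at 0 in both libraries. Summed over all 21 rows, with listed zeros counted as 0 and the split among copies within the family set aside, Mup RNA had 3974 FPKM from 19538 fragments in the case input. The same sum was 354 FPKM from 1501 fragments in the control input, a ratio of 11.1 (interval 10.5 to 11.7).

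**Figure D3:**
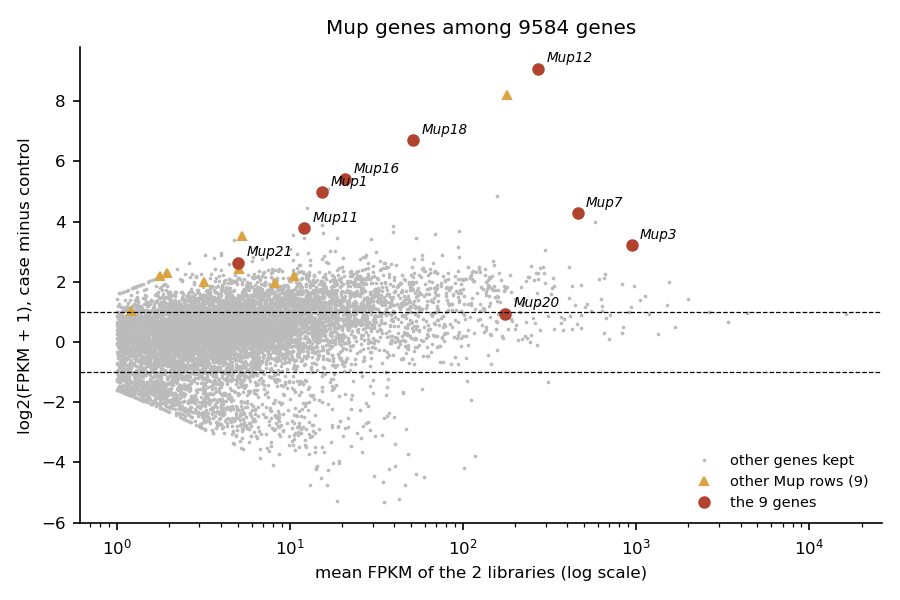
Mean FPKM of the 2 libraries (log axis) against the log2(FPKM + 1) difference, case minus control, for 9584 genes, with the 9 genes as labelled circles, 9 other Mup rows as triangles and dashed lines at a 2-fold difference. Mup12 tops the plot, 8 of the 9 lie above the upper line, and Mup20 lies just below it at 0.95, a difference that is -0.20 under quantile normalization.

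Promoter sequences are shown as a description, since the genes were selected on their differences. RefSeq windows on GRCm38.p6, 250 bases before to 50 after the annotated start, matched 5 of the 9 genes and 14 of the 21 rows. Mup1, Mup12, Mup16 and Mup20 had no window. The gene of largest difference, Mup12, and the gene within 2-fold, Mup20, are thus missing. What the windows share can therefore not be set against the differences. The longest run of letters common to the 5 windows, found after the sequences were seen, was ATTGCCAAGTTTG. Searched on both strands, it was in 12 windows of 32851 (0.0365%), and all 12 belonged to Mup genes. The 200 bases before the start of 3 genes are given below 5′ to 3′, all from the minus strand of chromosome 4. They lie at chr4:60070476-60070675 for Mup7, chr4:62087318-62087517 for Mup3 and chr4:61674095-61674294 for Mup18. Capitals mark that run and, where present, the TATA-type letters TATATAA.
Mup7: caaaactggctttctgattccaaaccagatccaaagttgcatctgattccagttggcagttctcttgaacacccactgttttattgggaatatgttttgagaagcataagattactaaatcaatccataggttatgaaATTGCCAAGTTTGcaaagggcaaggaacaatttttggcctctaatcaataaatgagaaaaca
Mup3: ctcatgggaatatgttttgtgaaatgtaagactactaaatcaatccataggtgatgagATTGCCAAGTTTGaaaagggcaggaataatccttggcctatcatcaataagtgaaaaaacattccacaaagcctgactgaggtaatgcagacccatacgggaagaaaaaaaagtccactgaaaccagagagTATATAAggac
Mup18: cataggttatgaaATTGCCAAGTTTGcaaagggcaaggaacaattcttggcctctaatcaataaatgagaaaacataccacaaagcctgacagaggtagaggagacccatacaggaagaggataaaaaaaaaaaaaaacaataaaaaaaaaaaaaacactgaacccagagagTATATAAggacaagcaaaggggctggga

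The common run began 62 bases before the annotated start in Mup7, 142 in Mup3 and 187 in Mup18. It began 136 bases before the start in Mup21 and 168 in Mup11, whose window uses a start downstream of the 5′ end of the annotated gene. TATATAA was in 4 of the 5 windows, with Mup7 the exception, and in 13 of the 14 family windows, beside 3.24% of all windows. In those 4 windows TATATAA lies further downstream of the common run than the Mup7 window reaches. Whether Mup7 has these letters at that place was therefore not determined. AAATCAATC, the longest run common to the 14 family windows, was in 0.237% of all windows. Both were also picked after the sequences were seen. TTCNNNGAA, the letters of a STAT5-type site, were in none of the 14 family windows and in 8.30% of all windows, which says nothing of sites outside these 300 bases. Pairwise identity between the 5 windows ran from 40.0% for Mup7 with Mup18 to 90.5% for Mup3 with Mup21, with a median of 63.7%, and Mup7 was at most 50.9% identical to any of the others. The common run begins 62 bases before the start in Mup7 but 136 to 187 in the others, so the Mup7 window covers an offset stretch. Low identity of the Mup7 window therefore need not mean a different sequence around the run. Among the windows of Mup2, Mup9, Mup10, Mup15, Mup17, Mup18 and Mup19 pairwise identity ran from 88.7% to 98.0%. Mup18, listed at 0 in the control input, and Mup19, at 2.74 FPKM there, both lie within a group of near-copies.

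Fewer peaks were assigned to the Mup genes in the case list than in the control list. The case list held 4 peaks assigned to the 9 genes, all of them to Mup20, and the control list held 13. The 13 were divided into 5 for Mup20, 4 for Mup3, 3 for Mup7 and 1 for Mup11. The 2 lists were of similar length, with 17277 peaks in the case list and 17175 in the control list. Thus 1 of the 9 genes had a case peak, beside 65.4% of genes kept, and 4 of 9 had a control peak, beside 65.6%. Mup3, the most abundant of the 9 in the case input, had no case peak, and neither did Mup7 or Mup12. The 4 genes with a control peak were those with the highest FPKM in the control input, although Mup11 and the next gene, Mup21, overlapped in their intervals. Over all Mup rows there were 6 case peaks in 2 genes and 22 control peaks in 9 genes.

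All 4 case peaks assigned to Mup20 were present in the control list at identical coordinates, and these were 4 of the 13 control peaks. Over the whole lists, 35.3% of case peaks were overlapped by a control peak by at least 1 base, and 35.5% of control peaks by a case peak. A pair of the peaks assigned to Mup20 in each list, at chr4:61958498-61958571 and chr4:61959342-61959475, lie in the pseudogene Mup-ps19 of the GRCm38.p6 annotation and outside Mup20 itself. The assignment is the authors' own. Counted by position, the case list has 2 peaks inside 1 of the 9 genes and the control list 11 inside 4 of them.

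The control peaks fell at recurring places along the genes. Each of the 4 genes had a peak over or within 30 bases of its annotated 5′ end, from 25 bases before that end in Mup3 and 15 before it in Mup20 to 21 bases after it in Mup11. In Mup3, Mup7 and Mup11 these peaks cover all 50 transcribed bases of the promoter windows. A second place lay 1285 to 1574 bases downstream of the 5′ end, introns included, and the peaks there were 74 bases long in Mup3, Mup7, Mup20 and Mup-ps19 alike. Peaks of exactly this length numbered 44 in the case list, 2 of them among the 4, and 27 in the control list, 4 of them among the 13. Near-identical copies can share fragments, so peaks at like places need not be separate m6A sites. The cause of the shared places and lengths was not tested. Fold enrichment, the authors' ratio of IP over background, is given within each list only. In the case list the highest peak assigned to Mup20 was the 10.8-fold one in Mup-ps19, and the highest within Mup20 itself was 9.7-fold, both below the case median of 14.95. The false discovery rates of the 2 highest case peaks were 17.94%, beside a case list median of 12.28% and a control list median of 1.66%. In the control list the highest peak was at 49.59-fold in Mup3 (chr4:62085959-62086032, 74 bases), 38.32-fold in Mup7 (chr4:60070205-60070475, over its start), 23.76-fold in Mup20 (chr4:62052636-62052709, 74 bases) and 6.19-fold in Mup11 (chr4:60662202-60662411). The median of the control list was 28.54, and the highest peaks of Mup3 and Mup7 lay above it and those of Mup20 and Mup11 below it.

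**Figure D4:**
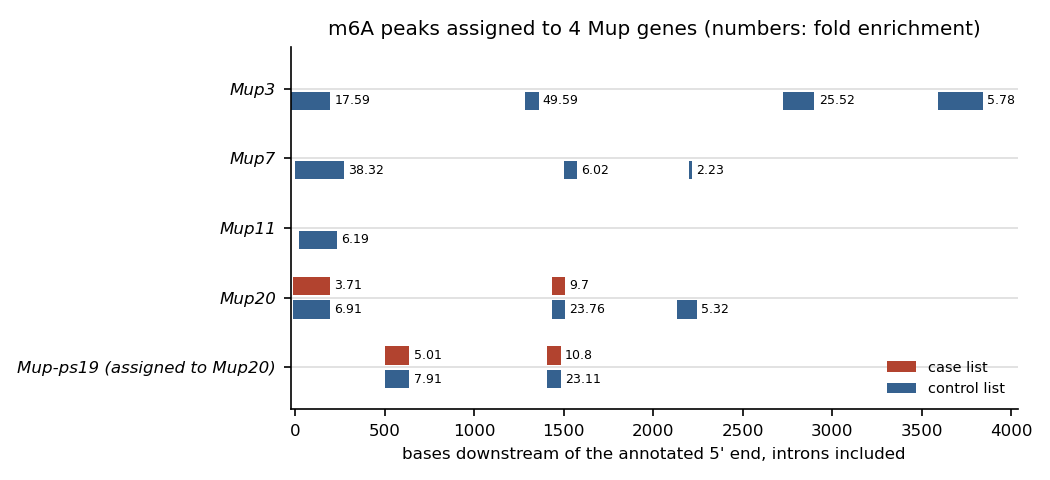
Position of each m6A peak assigned to the 9 genes, in bases downstream of the annotated 5′ end with introns included, for the case list (red, upper bars) and the control list (blue, lower bars), with the authors' fold enrichment beside each bar. Red bars appear in the Mup20 and Mup-ps19 rows alone, each above a blue bar at the same place, and the 74-base peaks line up between 1285 and 1574 bases in 4 rows.

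A list of 24 genes joined growth hormone signalling with regulators of male-biased liver transcription, and its genes did not all lie in the same direction. Of the 24, 16 were higher by 2-fold or more, 2 were lower by as much, and the median log2 difference was 1.22, beside 23.6% higher and 13.2% lower among all genes kept. The number higher was 8 with equal totals (beside 7.19% of all genes), 9 with quantile normalization (14.2%) and 10 with median centring (11.6%). Ghr, the growth hormone receptor, had 106 FPKM in the case input and 30.1 FPKM in the control input. Jak2, the kinase it activates, was lower, at 0.860 FPKM in the case input and 2.90 FPKM in the control input. Stat5b, the main signal transducer of male-type liver transcription, had 6.80 FPKM in the case input and 2.84 FPKM in the control input, and its close relative Stat5a had 3.62 FPKM in the case input and 1.29 FPKM in the control input. For Stat5a the ratio of scaled fragments was 1.45, and its interval of 0.871 to 2.45 includes equality.

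Feedback inhibitors of the receptor differed among themselves. Socs3 was lower, at 4.63 FPKM in the case input and 16.9 FPKM in the control input, whereas Socs2, within 2-fold, had 7.24 FPKM in the case input and 5.06 FPKM in the control input. Cish had 6.03 FPKM in the case input and 2.18 FPKM in the control input, with a fragment ratio of 1.83 (interval 1.29 to 2.64). Among transcription factors, Onecut1 had 19.4 FPKM in the case input and 3.05 FPKM in the control input, and the nuclear receptors Ppara and Nr0b2 had 40.9 and 12.3 FPKM in the case input, against 7.41 and 1.99 FPKM in the control input. Hnf4a, a master regulator of hepatocyte genes, had 77.7 FPKM in the case input and 19.1 FPKM in the control input. Bcl6, a repressor of female-type genes in male liver, had 3.44 FPKM in the case input and 1.62 FPKM in the control input. Cux2, a factor of female-type liver, had 4.24 FPKM in the case input and 1.14 FPKM in the control input. Zhx2, a known regulator of Mup genes in mouse liver, lay within 2-fold at 3.32 FPKM in the case input and 2.20 FPKM in the control input. Igf1, a growth hormone target and the secreted mediator of its effects, had 154 FPKM in the case input and 40.1 FPKM in the control input.

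Sex-biased liver genes lay on the same side in both classes as deposited. The counts of higher genes in the lists that follow stand beside 23.6% of all genes kept as deposited, 7.19% with equal totals, 14.2% with quantile normalization and 11.6% with median centring. Of 21 kept male-biased genes outside the family, 16 were higher and 0 were lower in the case input, the median was 1.905, and 13 to 14 were higher under the other scalings. Selenbp2, a selenium-binding protein, had 303 FPKM in the case input and 9.64 FPKM in the control input. Serpina1e, a protease inhibitor with near-identical copies, had 1081 FPKM in the case input and 67.3 FPKM in the control input. The organic anion transporter Slco1a1 had 29.6 FPKM in the case input and 1.07 FPKM in the control input. Of 18 kept female-biased genes, 15 were higher and 0 lower, with a median of 1.39. With equal totals 4 of these 18 were higher and 1 lower, and with quantile normalization 9 and 0. The sulfotransferase gene Sult2a1 had 2.43 FPKM in the case input and 4.89 FPKM in the control input. Cyp17a1 had 12.2 FPKM in the case input and 1.70 FPKM in the control input, and Sult3a1 had 5.23 FPKM in the case input with a listed 0 in the control input. Lipocalins outside the family, the same protein fold, were higher in 5 of 7 genes kept as deposited and in 1 of 7 with quantile normalization. Among them the retinol carrier Rbp4 had 1311 FPKM in the case input and 346 FPKM in the control input, C8g and Orm1 had 120 and 280 FPKM in the case input against 29.7 and 78.1 FPKM in the control input, and Lcn2 had 10.2 FPKM in the case input and 14.4 FPKM in the control input. Abundant secreted proteins of hepatocytes were higher in 17 of 33 genes as deposited, with a median of 1.01, and in 6 with equal totals and 1 with quantile normalization, the last a smaller share than that of all genes. The apolipoproteins Apoc3 and Apoa2 had 992 and 2463 FPKM in the case input, against 229 and 616 FPKM in the control input.

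**Figure D5:**
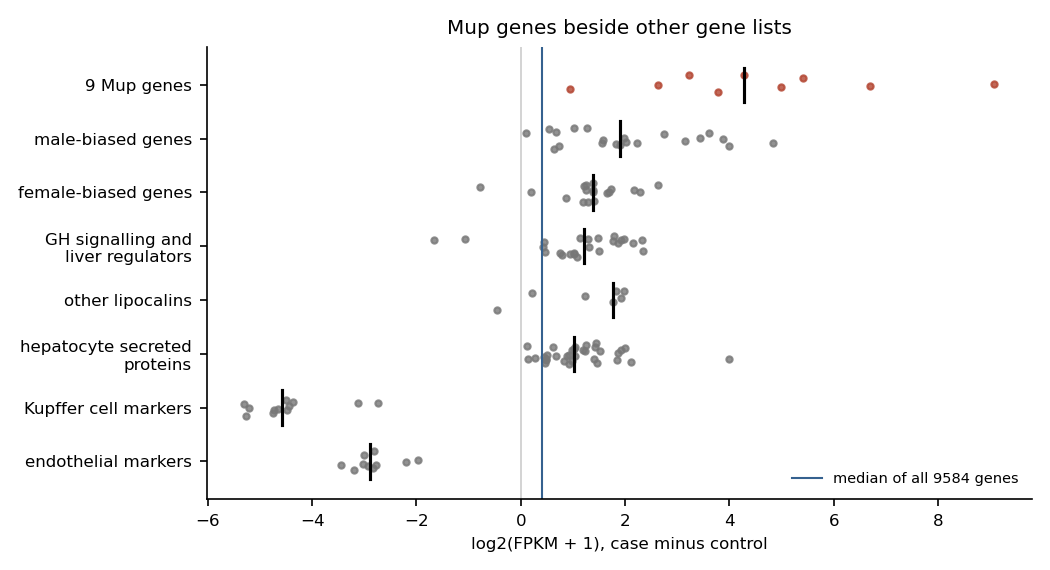
log2(FPKM + 1) difference, case minus control, of the kept genes of 8 lists (points, FPKM as deposited), with each list's median as a black bar and the median of all 9584 genes as a blue line at 0.41. The 9 Mup genes have a median of 4.28, with Mup20 lowest at 0.95 (-0.20 under quantile normalization), and the marker lists of Kupffer and endothelial cells lie left of 0.

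Markers of other liver cell types differed in the opposite direction to the Mup genes. The counts of lower markers stand beside 13.2% of all genes kept as deposited and 19.4% with equal totals. Some markers had under 1 FPKM in the case input and passed through the control input alone. These counts are therefore a description and support nothing by themselves. All 12 kept Kupffer cell and macrophage markers were lower in the case input. These markers summed to 18.3 FPKM in the case input and 712 FPKM in the control input. Sinusoidal endothelial markers were lower in 10 of 10, with sums of 28.2 FPKM in the case input and 275 FPKM in the control input. Stellate cell markers were lower in 8 of 8 kept, with sums of 14.1 FPKM in the case input and 144 FPKM in the control input. Among lymphocyte markers 3 of 3 kept were lower. Of these, Gzma and Nkg7 hold identical values, from 1 fragment in the case input and 10 in the control input. They may not be separate measurements. Il2rb had 3 fragments in the case input and 41 in the control input. The lymphocyte list summed to 1.63 FPKM in the case input and 14.8 FPKM in the control input, with Cd3e and Cd79b at 0 in the case input. The cholangiocyte list summed to 1.94 FPKM in the case input and 8.999 FPKM in the control input, with Krt19, Krt7, Epcam and Cftr at 0 in the case input. Hepatocyte markers, which check the labelled tissue, were present in both libraries and summed to 27401 FPKM in the case input and 13283 FPKM in the control input. Of these 10 markers, 8 were higher by 2-fold or more as deposited, beside 23.6% of all genes kept. With equal totals 6 were higher beside 7.19%, and with quantile normalization 4 beside 14.2%. The part of cell makeup in the Mup difference was not tested. Salivary and lacrimal glands also express Mup genes, and 6 of the 7 markers of those glands were at 0 in both inputs. The seventh, Amy1, which liver also expresses, had 35.9 FPKM in the case input and 15.8 FPKM in the control input.

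Outside the family, the 5 genes whose log2 difference lay nearest to that of the Mup sum (3.36), among genes with a mean of at least 10 FPKM, were Fasn, Ppp1r3g, Cyp2d9, Pklr and Upp2. This likeness rests on a single difference between 2 libraries. Fasn, the fatty acid synthase, had 54.6 FPKM in the case input and 4.20 FPKM in the control input. Cyp2d9, a male-biased cytochrome P450, had 98.9 FPKM in the case input and 8.19 FPKM in the control input. Ppp1r3g, a glycogen-targeting subunit of protein phosphatase, had 23.0 FPKM in the case input and 1.21 FPKM in the control input. Pklr, a pyruvate kinase of glycolysis, had 35.3 FPKM in the case input and 2.31 FPKM in the control input. Its fragments numbered 547 in the case input and 3 in the control input. By fragments the Pklr difference was thus far wider than by FPKM and not near that of the Mup sum. Upp2, a uridine phosphorylase, had 169 FPKM in the case input and 17.9 FPKM in the control input.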

How the data were processed

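Input RNA and m6A immunoprecipitates of mouse liver were sequenced as 150 bp paired-end reads, per the labels' protocols. Tools named in the submitters' processing notes are HISAT2 2.0.4, cutadapt 1.9.3, Cufflinks and Cuffdiff, with the build mm10 and no roles. The authors deposited FPKM per gene and, beside it, a signal headed as counts. Low values of that signal come in multiples of a step, 0.927 in the case input and 1.09 in the control input. Dividing by the step gave whole fragments, within 0.02, for 91.7% of values above 0 in the case input, 92.6% in the control input and all 21 Mup rows. In the deposited peak lists each peak has, per the file headers, a fold enrichment (a ratio), a score (a scaled negative log10 of the p-value) and a false discovery rate in percent. The peak names start with MACS, and neither a version nor settings or the background used are given in the sources used here. Starts count from 0: after 1 was added, 250 case peaks and 308 control peaks met a RefSeq gene start of GRCm38.p6, against 24 and 22 without. Coordinates are therefore given counting from 1.

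Levels were compared as log2(FPKM + 1) in case minus control, a scale that compresses low genes. Counts of genes used a 2-fold difference among genes with a mean of at least 1 FPKM, with mitochondrial genes set aside. With 1 library per genotype no test was run. The step was checked on simulated data. Promoter windows came from RefSeq on GRCm38.p6. Python 3.11.15, pandas 2.3.3, scipy 1.17.1 and biopython 1.88 were used. The Mup genes, the gene lists and the alternatives were chosen with earlier results of these data known. Named were all Mup rows, Mettl3, the 3 genes with the largest difference in each direction of a list, the 5 nearest genes and the highest peak per gene. The values of 1 gene that this rule names are not reported here. The marker lists are given by counts and sums, with some markers named beside them. The remaining growth hormone and regulator genes named were added for their role. Another expression table has 8 columns, and 4 peak lists exist, whose numbers match no label, and their values were not used. The name column of that table holds 9 of the 9 genes. One line of each expression table was emptied for this work. A protein comparison and a search of peak sequences were planned and are not part of this report.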

Additional observations from a re-analysis of the deposited data

How the results depend on the processing

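The summed log2 difference of the 9 genes, 3.36 as deposited, was 2.62 with equal non-mitochondrial totals, 2.20 with quantile normalization and 2.95 with median centring. It was 3.48 over all Mup rows and 3.03 without the genes listed at 0 in the control input. Leaving out single genes gave 3.48 without Mup3, 3.14 without Mup7, 3.12 without Mup12 and 3.87 without Mup20. The direction was kept in each of these, and the count of 8 of 9 genes higher was the same under the 7 alternatives tried. The 9 were selected on these same values, and 6 of them had under 1 FPKM in the control input. That neither changed is therefore no support. Peaks assigned to the 9 genes in the case list numbered 4 as deposited, 1 with the false discovery rate held to 15%, 0 at 5% and 0 at a fold enrichment of at least 20. In the control list the last setting left 5 of 13 peaks. These thresholds remove peaks by construction. The list of growth hormone signalling and transcription regulators had 8 genes higher with equal totals, 9 with quantile normalization and 10 with median centring, against 16 as deposited. The overlap counts were 4 in each list also at 50% of the peak. No paired analysis was possible because 1 library per genotype could be tied to a label. Depth limits Mup11, Mup21 and Mup2, which rest on 3, 2 and 1 fragments in the control input.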

Other observations

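Mup genes outside the 9 carried the highest fold enrichments of the family, in rows with little or no input RNA. Mup6, listed at 0 in the control input, had 3 control peaks at 222.12, 1676.69 and 259.14-fold. The 1676.69-fold peak (chr4:60004814-60004887, 74 bases) was position 7 of the 17175 control peaks by fold enrichment. In the case list the same 74 bases had 30.88-fold enrichment, with Mup6 at 10.5 FPKM in the case input, and lists are not compared by this value. Mup8, listed at 0 in both inputs, had control peaks at 16.97 and 460.43-fold and none in the case list. A ratio over background is uncertain where the input is at or near 0.

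Peak lengths recurred across family members, and the cause was not tested. A length of 134 bases was seen in Mup8 and in Mup-ps19, each starting 504 to 530 bases after the annotated 5′ end. The 74-base peak lay 1333 bases after the 5′ end in Mup6, near its place in Mup3 (1285 bases), Mup-ps19 (1408), Mup20 (1434) and Mup7 (1501).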
